A study of Mus musculus with 4 samples.

Results

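Colonic epithelium of Smad4 KO mice given dextran sulfate sodium contained almost no transcript of Mptx1, a secreted pentraxin, which averaged 1.81 ± 0.625 CPM in Smad4 KO libraries and 430 ± 30.0 CPM in WT libraries (SD, n = 2 each; CPM are counts scaled to a common library size). Its neighbour in the family, Mptx2, was also lower, at 0.747 ± 0.166 CPM in Smad4 KO libraries and 5.97 ± 2.21 CPM in WT libraries. The ribonuclease Ang4 and the lysozyme Lyz2 were higher in Smad4 KO libraries, and the immunoglobulin transporter Pigr was moderately lower. The genes described here encode proteins that epithelium releases into the gut lumen to bind or attack bacteria, and the carrier that brings antibodies there. They were picked by symbol from a list of 10 that was drawn up with results of this genotype contrast in view. A row of the count table was found for 9 of the 10, among 31227 rows in all. The 9 are Mptx1, Mptx2, Zg16, Itln1, Retnlb, Ang4, Lyz1, Lyz2 and Pigr, and Pla2g2a was not analysed here. Because earlier results of the same contrast chose the genes, their values are given as a description, and no test of them is read as a result.

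RNA sequencing measured colonic epithelial cells of 8 to 10 week old mice of 2 genotypes, with 2 libraries each: Smad4 KO (epithelial knockout of Smad4, replicates 1 and 2) and WT (replicates 1 and 3). Both genotypes drank 3.5% DSS (dextran sulfate sodium, which damages the lining of the colon) for 5 days and then plain water, and were killed on day 7; the labels' own time entry is 5 days. Mice without DSS were not analysed here, so DSS is common to both groups and its effect cannot be read. The strain, the Cre line or promoter behind the knockout, and whether libraries came from separate or pooled mice are not stated in the labels. The p-values therefore reflect the spread of these 4 libraries, which may be only technical.

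The libraries held 61260099 and 67927291 counts (Smad4 KO) and 56018009 and 42577920 counts (WT), so that 1 count stood for 0.0150 to 0.0229 CPM. Smad4, the shared Smad of TGF-β and BMP signalling, was at 51.5 and 41.1 CPM in Smad4 KO libraries, against 152 and 180 CPM in WT libraries. It fell 3.59-fold (edgeR adjusted p = 0.00163), and some Smad4 transcript remained in each KO library. Over all 15838 genes tested 15.2% passed, with 8.83% higher and 6.40% lower in Smad4 KO libraries. Epithelial identity was checked with 8 markers, of which 4 rose (Krt20, Krt18, Epcam and Cldn7), 1 fell (Krt19) and 3 did not pass edgeR's test. The Krt20 call held whichever library was left out, and the other 4 calls were lost when either KO library was left out. One of the 3 that did not pass was Krt8, a keratin of simple epithelium, which had 5579 and 5670 CPM in Smad4 KO libraries and 6200 and 5727 CPM in WT libraries. The summed level of the epithelial markers was 16360 and 16883 CPM in Smad4 KO libraries, against 16411 and 16023 CPM in WT libraries. Mitochondrially encoded genes took 5.40% and 5.22% of counts in Smad4 KO libraries and 4.51% and 4.16% in WT libraries. In RNA from many cells, fewer cells of a type and less RNA per cell cannot be told apart.

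Pentraxins are ring-shaped secreted proteins, of which C-reactive protein is the best known, and they bind phosphocholine and other groups on bacterial surfaces. In the mouse gut, Mptx1 and Mptx2 (mucosal pentraxins) are made by epithelial cells. The other genes belong to the same barrier: Zg16 and Itln1 are lectins that bind bacterial sugars, Retnlb (RELMβ) is a goblet cell protein that acts on bacteria in mucus, Ang4 is an antimicrobial ribonuclease, Lyz1 and Lyz2 are lysozymes that cut the bacterial cell wall, and Pigr carries IgA and IgM across the epithelium into the lumen.

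The DNA in front of Mptx1 and Mptx2 is printed because both genes were lower in Smad4 KO libraries, by very unequal amounts. Each run is the 250 bases before the RefSeq start of the gene on GRCm38.p6, 5′ to 3′ on the gene's strand, at chr1:174330268-174330517 (plus strand) for Mptx1 and chr1:173277757-173278006 (minus strand) for Mptx2. Capitals mark matches to CAGAC (a core of Smad binding motifs) and TTTAT (a core of posterior Hox and Cdx binding motifs), searched on both strands.
Mptx1: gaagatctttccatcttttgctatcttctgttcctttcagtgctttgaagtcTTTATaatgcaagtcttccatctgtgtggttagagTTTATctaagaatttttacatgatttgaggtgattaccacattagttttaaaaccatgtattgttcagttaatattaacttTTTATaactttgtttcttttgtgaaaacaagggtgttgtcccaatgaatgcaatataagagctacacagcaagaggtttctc
Mptx2: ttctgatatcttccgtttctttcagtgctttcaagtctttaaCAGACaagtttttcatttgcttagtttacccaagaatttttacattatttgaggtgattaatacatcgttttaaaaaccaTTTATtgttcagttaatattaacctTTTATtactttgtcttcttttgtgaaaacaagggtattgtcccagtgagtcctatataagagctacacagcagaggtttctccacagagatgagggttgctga
The pair aligned with 201 of 250 identical bases (80.4%). The same count for Lyz1 and Lyz2, the other close pair, was 205 of 250 (82.0%), and the remaining 19 pairs among 7 promoters reached at most 60.4%. TTTAT began at 198, 163 and 82 bases before the start in Mptx1 and at 128 and 103 bases in Mptx2. CAGAC occurred once in Mptx2, at 208 bases before the start, and was not in the Mptx1 window. The longer Smad motifs GTCTAGAC, a palindrome that shares 4 letters with CAGAC, and GGCGCC were in neither window. Of 32851 mouse promoter windows of the same length, 42.2% held CAGAC, 37.3% TTTAT, 9.59% GGCGCC and 0.167% GTCTAGAC. Such matches describe the letters and are not shown to be binding sites. The GENCODE start of Mptx2 lies slightly upstream of the RefSeq one, so the last bases of its run are transcribed in that annotation.

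Mptx1 (ENSMUSG00000026531, chromosome 1, plus strand, 174330518 to 174332873 on GRCm38) received 82 and 150 counts in Smad4 KO libraries, against 25607 and 17837 counts in WT libraries. As levels these were 1.36 and 2.25 CPM in Smad4 KO libraries and 451 and 409 CPM in WT libraries. Both KO libraries were far below both WT libraries, with no overlap. The log2 fold change was -7.89 (SE 0.255), a 237-fold lower level in Smad4 KO libraries and the 24th lowest of 15838 genes tested. Per kilobase of exon, Mptx1 was at 2.26 CPM per kb in Smad4 KO libraries, rank 9455 among tested genes, and at 538 CPM per kb in WT libraries, rank 58. The KO transcript was detected, well above the 3 counts taken as the floor of detection.

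Mptx2 (ENSMUSG00000079180, chromosome 1, minus strand, 173274382 to 173277777) had 52 and 42 counts in Smad4 KO libraries, against 427 and 192 counts in WT libraries. The corresponding levels were 0.865 and 0.629 CPM in Smad4 KO libraries, against 7.53 and 4.40 CPM in WT libraries. The groups did not overlap, although the WT libraries differed from each other more than they did for Mptx1. The log2 fold change was -3.00 (SE 0.379), 7.99-fold lower in Smad4 KO libraries. Mptx1 had 1.58 and 3.57 counts for each count of Mptx2 in Smad4 KO libraries, against 60.0 and 92.9 in WT libraries. With exon lengths of 799 and 794 bases, Mptx1 thus outnumbered Mptx2 in all 4 libraries. The transcripts share 134 stretches of 50 identical bases, which is 17.9% of the stretches in Mptx1 and 18.0% of those in Mptx2, so reads may have been assigned to the wrong one. In WT libraries Mptx2 counts were 1.67% and 1.08% of Mptx1 counts, a level to which misplaced Mptx1 reads could add; how many did so was not tested.

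**Figure D1:**
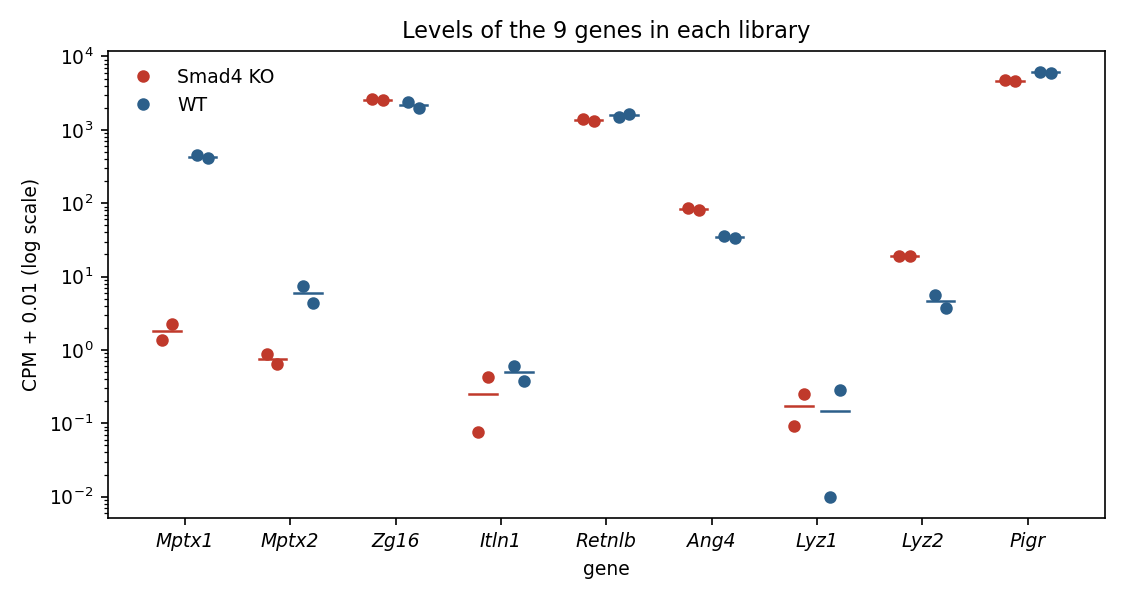
Level of each gene in each library as CPM + 0.01 on a log axis, with Smad4 KO libraries in red and WT libraries in blue; each point is 1 library and each line the mean of 2. Mptx1 had 1.36 and 2.25 CPM in Smad4 KO libraries and 451 and 409 CPM in WT libraries, whereas Zg16, Retnlb and Pigr lay at 1321 CPM or more in all 4.

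Most annotated neighbours of the pentraxin genes had no count, and nearly all of these were olfactory receptor genes. Of 5 annotated neighbours within 100 kb of Mptx1, 4 had no count in any library, all of them olfactory receptor genes. Around Mptx2, 5 of 8 neighbours had no count, namely olfactory receptor genes and Fcer1a. The tested one, Aim2, a DNA sensor, was at 58.3 and 68.7 CPM in Smad4 KO libraries and 59.9 and 61.0 CPM in WT libraries. Aim2 was chosen after its values were seen, as the tested neighbour of Mptx2.

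The genes whose pattern over the 4 libraries was most like that of Mptx1 were Slc37a2, AI854703 and Hoxd13. Likeness was the distance between log2(CPM + 1) profiles centred on their means, among 10619 genes averaging at least 5 CPM, so it ranks genes by the genotype difference that picked Mptx1. Slc37a2, a sugar-phosphate carrier, lay at a distance of 1.32 and had 2.43 and 2.73 CPM in Smad4 KO libraries, against 226 and 224 CPM in WT libraries. AI854703 (distance 2.58) had 2.31 and 3.51 CPM in Smad4 KO libraries, against 98.2 and 102 CPM in WT libraries. Hoxd13, the most posterior gene of the Hoxd cluster, lay at 2.74 and had 3.16 and 4.38 CPM in Smad4 KO libraries, against 104 and 116 CPM in WT libraries. All 3 were thus nearly as low in the KO libraries as Mptx1 and had a smaller WT level.

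The lectins showed little or no separation between genotypes. Zg16 (ENSMUSG00000049350, chromosome 7, minus strand, 127050156 to 127087328), a goblet cell lectin that binds peptidoglycan of Gram-positive bacteria, was at 2626 and 2542 CPM in Smad4 KO libraries and 2420 and 1990 CPM in WT libraries. The groups did not overlap, but the KO libraries exceeded the higher WT library by less than the gap between the WT libraries. The log2 fold change was 0.23 (SE 0.0951), 1.17-fold higher in Smad4 KO libraries. Zg16 ranked 12th of the tested genes per kilobase in both genotypes, at 2056 CPM per kb in Smad4 KO libraries and 1754 CPM per kb in WT libraries. The noncoding gene Gm44939, which overlaps Zg16, had no count. Itln1 (ENSMUSG00000038209, chromosome 1, minus strand, 171518122 to 171535294), a lectin of goblet and Paneth cells that binds microbial sugars, was near the limit of detection, with 4 and 28 counts in Smad4 KO libraries and 34 and 16 counts in WT libraries. Its levels overlapped, at 0.0665 and 0.420 CPM in Smad4 KO libraries and 0.599 and 0.367 CPM in WT libraries, and its log2 fold change of -0.98 had an SE of 1.01. Without Smad4 KO replicate 2 it was -2.82, so at this depth the size of any difference in Itln1 could not be read.

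Retnlb (ENSMUSG00000022650, chromosome 16, plus strand, 48816856 to 48818892) was among the most abundant transcripts per kilobase in both genotypes, at 1949 CPM per kb in Smad4 KO libraries (rank 14) and 2275 CPM per kb in WT libraries (rank 9). It was at 1393 and 1321 CPM in Smad4 KO libraries, against 1502 and 1666 CPM in WT libraries. The ranges did not overlap and lay close together, with a log2 fold change of -0.22 (SE 0.0652), 1.17-fold lower in Smad4 KO libraries. Its only tested neighbour within 100 kb, the myeloid resistin-like gene Retnlg, had 4.89 and 4.17 CPM in Smad4 KO libraries and 1.36 and 0 CPM in WT libraries and did not pass edgeR's test (adjusted p = 0.227).

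Both Zg16 and Retnlb are goblet cell products, and the goblet cell markers did not move one way. Of 12 markers tested, 3 rose in Smad4 KO libraries (Muc2, Galnt12 and Sytl2), 5 fell (Fcgbp, Clca1, Rep15, Capn9 and Fer1l6) and 4 did not pass (edgeR). Over all tested genes 8.83% rose and 6.40% fell. The calls of Sytl2, Capn9 and Fer1l6 were lost without Smad4 KO replicate 2, and those of Capn9 and Fer1l6 also without Smad4 KO replicate 1. The main gel-forming mucin Muc2 had 14198 and 14288 CPM in Smad4 KO libraries and 8941 and 9307 CPM in WT libraries, and it rose 1.56-fold (edgeR adjusted p = 0.000515). The marker sum was 23243 and 23332 CPM in Smad4 KO libraries and 24424 and 24757 CPM in WT libraries. With Muc2 left out it was 9045 and 9044 CPM in Smad4 KO libraries, against 15483 and 15450 CPM in WT libraries. For each 100 Muc2 counts there were 18.5 and 17.8 Zg16 counts in Smad4 KO libraries, against 27.1 and 21.4 in WT libraries. The Retnlb figure was 9.81 and 9.24 in Smad4 KO libraries, against 16.8 and 17.9 in WT libraries. On that scale both genes were lower in the KO libraries, whereas in CPM Zg16 was slightly higher. Muc2 itself rose while the sum of the other markers fell, so the direction of such ratios depends on the marker chosen as the scale. No fall relative to goblet cell content is read from them. For each 100 Muc2 counts, the Mptx1 figure was 0.00961 and 0.0157 in Smad4 KO libraries, against 5.05 and 4.40 in WT libraries. The part of goblet cell number in these values was not tested.

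Ang4 (ENSMUSG00000060615, chromosome 14, minus strand, 51763878 to 51773590), an angiogenin-family ribonuclease of Paneth and goblet cells, was at 87.3 and 80.4 CPM in Smad4 KO libraries and 35.8 and 33.9 CPM in WT libraries. Both KO libraries lay above both WT libraries by much more than the spread within a genotype. The log2 fold change was 1.27 (SE 0.0845), 2.41-fold higher in Smad4 KO libraries. Related ribonucleases share 4.70% of its 50-base stretches, nearly all of them with Ang5, which had no count in any library. None of the 4 annotated neighbours within 100 kb of Ang4 had enough counts to be tested.

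Of the lysozymes, Lyz2 was readily detected and Lyz1 barely. Lyz2 (ENSMUSG00000069516, chromosome 10, minus strand, 117277331 to 117282321), best known from macrophages and neutrophils, was at 18.8 and 18.9 CPM in Smad4 KO libraries and 5.57 and 3.76 CPM in WT libraries. The KO libraries were nearly equal and both above the WT libraries, with a log2 fold change of 2.01 (SE 0.213), 4.02-fold higher in Smad4 KO libraries. Lyz1 (ENSMUSG00000069515, chromosome 10, minus strand, 117287797 to 117292868), the Paneth cell lysozyme, had 5 and 16 counts in Smad4 KO libraries and 0 and 12 counts in WT libraries. Its levels overlapped, at 0.0832 and 0.240 CPM in Smad4 KO libraries and 0 and 0.275 CPM in WT libraries, where a count of 0 allows up to 0.0529 CPM in WT replicate 1. The log2 fold change of Lyz1 was 0.29 (SE 1.63), and it turned to -0.68 without Smad4 KO replicate 2 and -0.77 without WT replicate 1, so no direction is given for it. Lyz1 counts were 0.443% and 1.27% of Lyz2 counts in Smad4 KO libraries, against 0% and 7.32% in WT libraries. The genes lie 5476 bases apart and share 195 stretches of 50 identical bases, 16.1% of those in Lyz1 and 15.4% of those in Lyz2, so part of the few Lyz1 counts may be Lyz2 reads; this was not tested.

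Markers of the cells that make lysozyme elsewhere are given beside these values. For the counts of calls, 8.83% of all tested genes rose and 6.40% fell in Smad4 KO libraries (edgeR). Of 10 Paneth cell markers, 7 defensin genes had no count in any library and 2 markers were tested, of which 1 rose (Mmp7) and 1 did not pass. The Paneth sum was 3.48 and 3.97 CPM in Smad4 KO libraries and 1.87 and 1.79 CPM in WT libraries. Most of that sum was Mmp7, a protease also made by injured epithelium, at 2.99 and 3.76 CPM in Smad4 KO libraries and 1.06 and 0.917 CPM in WT libraries, and its call was lost when either KO library was left out (edgeR adjusted p at most 0.136). Of 7 neutrophil markers tested, 5 rose in Smad4 KO libraries (Ly6g, Csf3r, Cxcr2, S100a8 and S100a9) and none fell, while the granule genes Mpo, Elane and Camp had no count in any library. The neutrophil sum was 439 and 427 CPM in Smad4 KO libraries and 130 and 103 CPM in WT libraries, mostly Ly6g, which had 330 and 319 CPM in Smad4 KO libraries and 116 and 93.3 CPM in WT libraries. Without Ly6g it was 110 and 108 CPM in Smad4 KO libraries, against 13.6 and 9.75 CPM in WT libraries. The Cxcr2 call was lost without Smad4 KO replicate 2. Of 12 macrophage markers, 2 rose (Itgam and Csf1r), and both calls were lost without Smad4 KO replicate 1. The macrophage sum without Cd14, its most abundant gene, was 47.5 and 44.8 CPM in Smad4 KO libraries and 37.1 and 40.4 CPM in WT libraries, and Cd14 itself was at 136 and 134 CPM in Smad4 KO libraries and 159 and 181 CPM in WT libraries. The neutrophil markers thus moved with Lyz2, and their part in its higher level was not tested.

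Pigr (ENSMUSG00000026417, chromosome 1, plus strand, 130826684 to 130852249) took more counts than any other of the 9 genes in every library, though per kilobase it stood below Zg16 and Retnlb. It was at 4710 and 4675 CPM in Smad4 KO libraries and 6143 and 5980 CPM in WT libraries. The groups were separated by several times the spread within a genotype, with a log2 fold change of -0.37 (SE 0.0343), 1.29-fold lower in Smad4 KO libraries. Per kilobase it stood at 1166 CPM per kb in Smad4 KO libraries (rank 28) and 1506 CPM per kb in WT libraries (rank 15). Its share of the counts of all 9 genes was 53.3% and 54.1% in Smad4 KO libraries and 58.1% and 59.3% in WT libraries. Transcripts of the antibody it carries were scarce: Igha, the IgA heavy chain, was at 3.93 and 4.08 CPM in Smad4 KO libraries and 2.68 and 1.93 CPM in WT libraries and did not pass edgeR's test (adjusted p = 0.115). The plasma cell markers summed to 7.22 and 6.58 CPM in Smad4 KO libraries and 4.39 and 3.76 CPM in WT libraries; none of the 4 tested passed, and Mzb1 and Tnfrsf17 had no count.

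**Figure D2:**
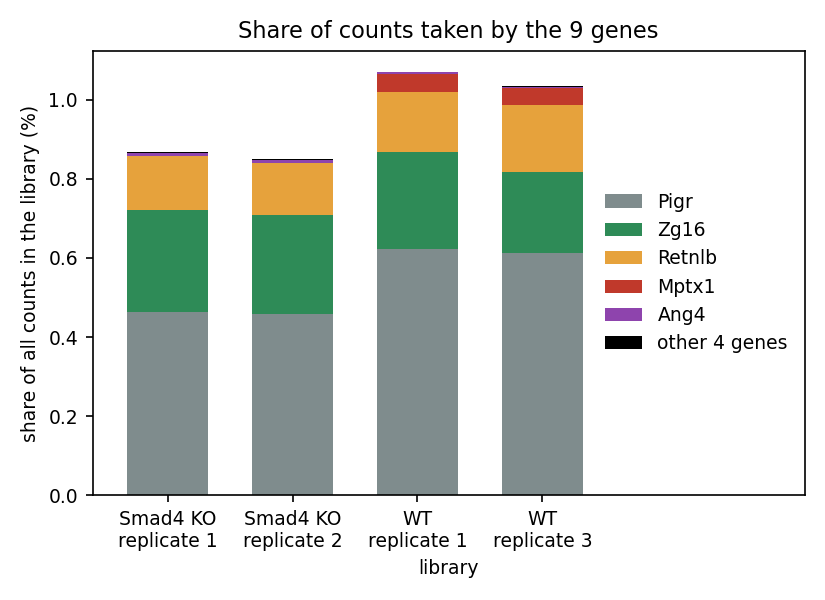
Share of each library's counts, in percent, taken by the 9 genes and stacked by gene, for Smad4 KO replicates 1 and 2 and WT replicates 1 and 3. The total was 0.867% and 0.849% in Smad4 KO libraries, against 1.07% and 1.03% in WT libraries, and the Mptx1 band is visible in the WT bars alone.

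As a group the 9 genes took 0.867% and 0.849% of all counts in Smad4 KO libraries and 1.07% and 1.03% in WT libraries. All 9 had enough counts to enter the fit over 15838 genes. In that fit 5 of the 9 had an edgeR adjusted p under 0.05, with Ang4 and Lyz2 higher and Mptx1, Mptx2 and Pigr lower in Smad4 KO libraries. Over all tested genes 15.2% passed, with 8.83% higher and 6.40% lower in Smad4 KO libraries. Nothing is read from these 5 calls, in number or by gene, since results of the same contrast chose the genes. The median log2 fold change was -0.22 over the 9 genes and 0.01 over all tested genes. The passing genes numbered 2412 in all, but 978 without Smad4 KO replicate 1 and 975 without Smad4 KO replicate 2.

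**Figure D3:**
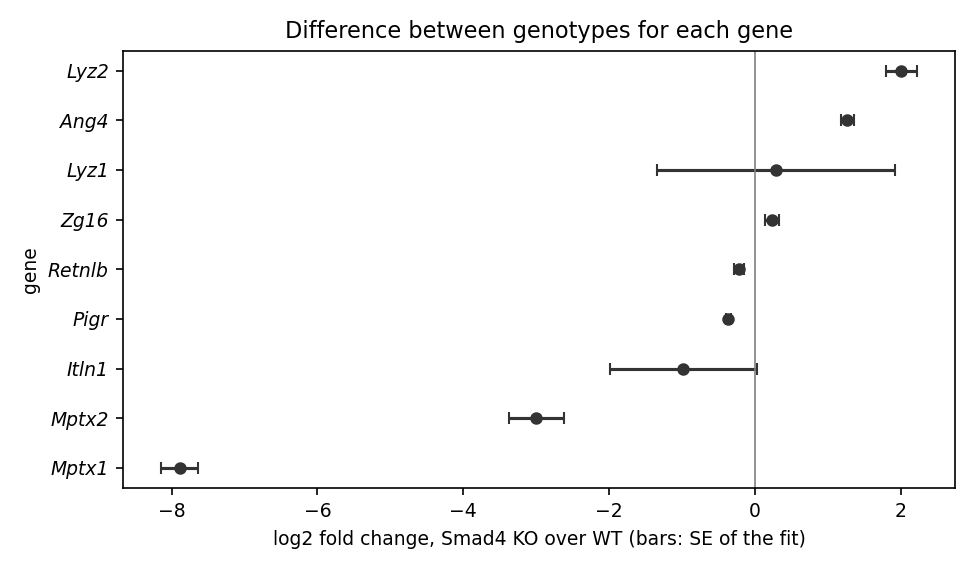
Log2 fold change of each gene, Smad4 KO over WT, on a linear axis, with the SE of the edgeR fit as bars; points left of 0 are lower in Smad4 KO libraries. Mptx1 (-7.89) stands far from the others, and the wide bars of Itln1 and Lyz1 go with their few counts.

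Other secreted antimicrobial proteins of the gut were listed with earlier results of these data known. The counts therefore only describe the list, on which more genes rose than fell. Of 28 listed, 23 could be tested, and 9 rose in Smad4 KO libraries, 3 fell and 11 did not pass (edgeR). Over all tested genes 8.83% rose and 6.40% fell. The median log2 fold change was 1.14 on the list and 0.01 over all tested genes. Ltf (lactoferrin, an iron-binding protein of neutrophil granules and epithelia) had 168 and 172 CPM in Smad4 KO libraries, against 11.1 and 10.7 CPM in WT libraries. Ltf rose 15.6-fold (edgeR adjusted p = 4.92e-05). Reg3b, a C-type lectin that kills bacteria, had 5756 and 5551 CPM in Smad4 KO libraries, against 763 and 701 CPM in WT libraries, and rose 7.72-fold (edgeR adjusted p = 4.92e-05).

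The genes in this paragraph other than Ltf and Reg3b were chosen after their values were seen, to show each direction. Reg3g, a relative of Reg3b that binds Gram-positive bacteria, rose 7.31-fold, with 1814 and 1711 CPM in Smad4 KO libraries and 248 and 234 CPM in WT libraries (edgeR adjusted p = 4.92e-05). Wfdc2, an antiprotease of goblet cells, fell 4.85-fold, to 30.8 and 29.2 CPM in Smad4 KO libraries, against 167 and 124 CPM in WT libraries (edgeR adjusted p = 0.00112). Reg4, a lectin of deep crypt secretory cells, fell 4.16-fold, to 33.9 and 32.7 CPM in Smad4 KO libraries, against 146 and 132 CPM in WT libraries (edgeR adjusted p = 0.000289). The chemokine Ccl28, which is also antimicrobial, fell 1.52-fold, to 124 and 123 CPM in Smad4 KO libraries, against 192 and 183 CPM in WT libraries (edgeR adjusted p = 0.00391). The 2 genes of the list with the most counts did not pass. Dmbt1, a scavenger receptor that clumps bacteria, was at 12202 and 12414 CPM in Smad4 KO libraries and 11287 and 11460 CPM in WT libraries (edgeR adjusted p = 0.0637). Lypd8, which binds flagella, was at 6675 and 6730 CPM in Smad4 KO libraries and 6767 and 6524 CPM in WT libraries (edgeR adjusted p = 0.860). Of the 12 calls, 11 held when any 1 library was left out, and the exception was Lcn2, lipocalin 2, without Smad4 KO replicate 1. Ltf is also a neutrophil granule gene, and 5 of the 7 neutrophil markers tested above rose with it. The neutrophil marker Camp had no count in any library. Another, Ngp, had 0.233 and 0.465 CPM in Smad4 KO libraries and no count in WT libraries. Ngp did not pass (edgeR adjusted p = 0.0621). The part of neutrophils in the Ltf level was not tested.

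**Figure D4:**
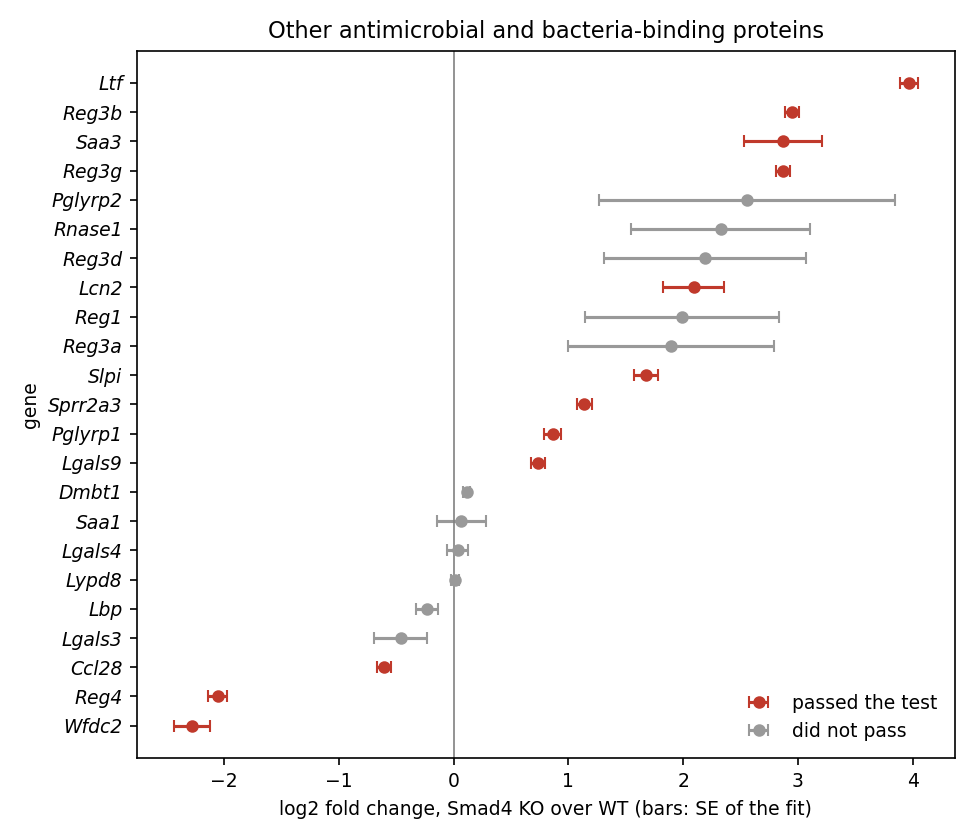
Log2 fold change, Smad4 KO over WT, with SE bars, of the 23 tested genes for other secreted antimicrobial or bacteria-binding proteins; red points passed edgeR's test and grey points did not. Ltf (3.97) and Reg3b (2.95) lie at the upper end and Reg4 (-2.06) and Wfdc2 (-2.28) at the lower end.

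Gene family relatives of the 9 were mostly silent or low. Of 33 listed, 32 were analysed here, 14 had no count in any library and 15 were tested. Of these, 1 rose in Smad4 KO libraries (Rnase4), 3 fell (Pla2g2c, Pla2g2f and Pla2g10) and 11 did not pass (edgeR), with a median log2 fold change of 0.19. Over all tested genes 8.83% rose and 6.40% fell. This list too was drawn up with earlier results of these data known, so its counts are a description. The classical pentraxins Crp and Apcs had no count in any library. Pla2g2f, a secreted phospholipase of the family of Pla2g2a, fell by 0.93 on the log2 scale, to 32.6 and 34.6 CPM in Smad4 KO libraries, against 70.0 and 58.0 CPM in WT libraries (edgeR adjusted p = 0.00719). Rnase4, a ribonuclease of the angiogenin family, had 63.7 and 67.2 CPM in Smad4 KO libraries, against 42.7 and 38.0 CPM in WT libraries, and rose 1.62-fold (edgeR adjusted p = 0.00869). None of the 4 calls held each time 1 library was left out: the number of calls was 0 without Smad4 KO replicate 1 and 1 without Smad4 KO replicate 2.

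Receptors and transcription factors known to govern such genes in gut epithelium went in both directions. Of 28 tested, 6 rose in Smad4 KO libraries, 7 fell and 15 did not pass (edgeR), with a median log2 fold change of 0.08. Over all tested genes 8.83% rose and 6.40% fell. The list was drawn up with earlier results of these data known, so its counts are a description. Il4ra, the receptor chain shared by IL-4 and IL-13, cytokines known to induce Retnlb and Ang4 in mice, had 242 and 241 CPM in Smad4 KO libraries, against 79.3 and 72.8 CPM in WT libraries. Il4ra rose 3.18-fold (edgeR adjusted p = 0.000312). The log2 fold changes of Retnlb and Ang4 lay on opposite sides of 0, and any part of Il4ra in them was not tested. Foxa2, a transcription factor of goblet cell differentiation, fell 2.12-fold, to 25.4 and 25.9 CPM in Smad4 KO libraries, against 54.2 and 54.6 CPM in WT libraries (edgeR adjusted p = 0.00167). The number of calls was 4 without Smad4 KO replicate 1 and 4 without Smad4 KO replicate 2. Of the 13 calls, those of Il4ra, Foxa2 and Creb3l1 held whichever library was left out, and without Smad4 KO replicate 2 the fourth was Irf1, which did not pass with all libraries.

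Markers of lymphocytes and stromal cells were low. For the counts of calls, 8.83% of all tested genes rose and 6.40% fell in Smad4 KO libraries (edgeR). The B and T cell markers summed to 10.3 and 11.6 CPM in Smad4 KO libraries and 3.60 and 5.37 CPM in WT libraries, and 1 of 7 tested rose (Cd4, a call lost in 5 of 9 alternatives). The most abundant of them, Cd8a, was at 4.04 and 4.18 CPM in Smad4 KO libraries and 1.22 and 2.43 CPM in WT libraries. Fibroblast markers summed to 65.3 and 69.8 CPM in Smad4 KO libraries and 38.9 and 39.0 CPM in WT libraries, and 2 of 8 tested rose (Fbln1 and Dcn, with the Dcn call lost without either KO library or WT replicate 3). Fbln1, an extracellular matrix protein, had 28.1 and 34.7 CPM in Smad4 KO libraries and 9.73 and 10.3 CPM in WT libraries. These sums were at most 69.8 CPM, and each was higher in Smad4 KO libraries, as were Ang4 and Lyz2 and opposite to the pentraxins; their part in those values was not tested.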

How the data were processed

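Per the labels' protocols, total RNA extracted with TRIZOL was made into libraries with random hexamer primers. The authors deposited a table of raw counts, whole numbers for 31227 Ensembl IDs in 4 libraries. FastQC (0.19.7), HISAT2 2.1.0, SAMtools 1.9 and StringTie 1.3.3b were used with GRCm38 (mm10), per the submitters' processing notes. The counting tool, strand setting, annotation release and treatment of reads matching several genes were not given in the sources used here. A gene and an antisense partner therefore cannot be told apart, and near-identical copies are uncertain.

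GENCODE M21 named 31207 IDs, and 20 unnamed IDs took 0.00197% of counts or less in each library. The fit used edgeR 4.0.16 (R 4.3.3): filterByExpr kept 15838 of 19618 genes with any count, followed by TMM, the quasi-likelihood F test with genotype as the only term, and Benjamini-Hochberg adjustment over all tested genes with a threshold of 0.05. Levels are CPM on TMM-scaled library sizes, per kilobase by merged exon length. A log2 fold change is Smad4 KO relative to WT, and its SE is its size over the square root of F. Replicate libraries differed beyond sampling noise (mean chi-square per gene 31.0 for Smad4 KO and 37.6 for WT). Floors of 3 counts cover counting error only. The fit was also run on counts simulated from its own means and dispersions. Such a run checks the code and cannot show how well the fit suits these libraries.

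The genes and lists were chosen with earlier results of these data known. The rule for other named genes took Smad4, the 2 genes with the smallest p in each of the lists of antimicrobial proteins, relatives and regulators, the most abundant gene of each marker list, and the 3 genes nearest to Mptx1. Any other gene, including each marker named because it passed, was chosen after its values were seen. A neighbour of Mptx1 and a macrophage marker are not reported here. Promoters came from RefSeq tables on GRCm38.p6, which matched 7 of the 9 genes; Zg16 and Retnlb are named only. The alternatives tried were size factors of DESeq2, upper-quartile scaling, library sizes without the 9 genes, no low-count filter, DESeq2 1.42.0 (Wald test), library totals for levels and leaving out each library.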

Additional observations from a re-analysis of the deposited data

How the results depend on the processing

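No paired analysis was possible because the genotypes share a single replicate number, 1. Mptx1, Mptx2, Ang4, Lyz2, Pigr, Zg16 and Retnlb kept their direction in all 9 alternatives, with log2 fold changes of -8.30 to -7.57 for Mptx1, -3.33 to -2.57 for Mptx2, 1.21 to 1.33 for Ang4 and 1.76 to 2.31 for Lyz2. The genotypes did not overlap in the levels of these genes, so leaving out 1 library could hardly reverse them. The share of all tested genes without overlap was not counted, so nothing is read from that lack of overlap. Lyz1, with at most 16 counts, ranged from -0.77 to 6.33 over the libraries left out and was reversed without Smad4 KO replicate 2 (-0.68) and without WT replicate 1 (-0.77). With 1 library left out, and the lone library assumed to vary like the other group, passing genes numbered 975 to 2573 (2412 with all libraries), 547 to 1504 higher and 425 to 1069 lower in Smad4 KO libraries. The antimicrobial list gave 11 to 16 calls, 8 to 12 higher and 3 to 4 lower. The relatives gave 0 to 4, with 0 to 2 higher and 0 to 2 lower. The regulators gave 4 to 13, with 1 to 6 higher and 2 to 7 lower. These fits have fewer samples. Other normalizations, filters and DESeq2 gave 2389 to 3264 passing genes, within 1.5 times the number with edgeR, and 56.1% to 61.9% of calls were higher over all alternatives. Library totals in place of TMM moved member levels by at most 2.42%. Depth limits Itln1 and Lyz1, which had at most 34 counts in a library.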
